A study of Homo sapiens with 4 samples.

Results

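The mitotic kinesins described here are 10 genes for microtubule motor proteins that build and divide with the spindle: KIF11, KIF14, KIF15, KIF18A, KIF18B, KIF20A, KIF20B, KIF23, KIF2C and KIF4A. They were taken by name, with earlier results of these data known. Every probe set whose platform annotation gave exactly 1 gene symbol equal to a listed name was kept. This gave 15 probe sets of the 54613 on the array that were not controls, and 10 of the 19775 genes with such a probe set. KIF20B had 3 probe sets, KIF14, KIF23 and KIF2C had 2 each, and the other genes had 1.

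The arrays address what ZNF750, a transcription factor of squamous epithelium, does to gene expression in squamous carcinoma cells. All 4 arrays came from CaSki, a cervical carcinoma line carrying human papillomavirus. The tested cells carried ZNF750 over expression (2 arrays) and the control cells GFP over expression (2 arrays), both delivered by lentivirus, in a medium that the labels list as free of fetal bovine serum. That entry may be a slip, so the serum the cells received is not known here. They are described as biological duplicates, without saying whether the cells were pools or clones or how the cultures were kept apart, and the p-values measure only the spread between these arrays. Values are log2 expression after RMA, and differences are ZNF750 minus GFP. The only ZNF750 probe set, 219995_s_at, had 2.23 and 2.29 in the ZNF750-labelled arrays, against 2.13 and 2.37 in the GFP arrays (percentile 0.451 of all means). The over expression is thus not seen on these arrays. The probe set may lie outside the introduced sequence, but its position is not known here, so the labels are taken as given.

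Kinesins turn the energy of ATP into movement along microtubules or into the removal of tubulin from their ends. During mitosis they push the spindle poles apart, align chromosomes, set the length of microtubules and assemble the midzone where the cell divides. Their genes are transcribed mainly in G2 and mitosis. Many genes of that phase carry a cell cycle genes homology region (CHR), the element read by the LIN54 subunit of the DREAM and MYBL2-MuvB complexes, together with a CCAAT box, the element read by NF-Y. In papillomavirus-positive cells the viral E7 protein disables RB and the viral E6 protein targets p53.

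Expression was lower in the ZNF750-labelled arrays for most of these motors. Of the 15 probe sets, 9 fell, 0 rose and 6 did not pass (limma, Benjamini-Hochberg adjusted p below 0.05 over all probe sets). At an unadjusted limma p below 0.05 the counts were 10 lower and 0 higher. The share of all probe sets at that unadjusted threshold was not counted. At the adjusted threshold 7.19% of all probe sets fell and 4.3% rose. Lower calls were 62.6% of all calls, and 43.9% when arrays were centred on bright probe sets. The 9 belonged to 7 genes, KIF14, KIF18A, KIF18B, KIF20A, KIF23, KIF2C and KIF4A, whereas 12.8% of all genes had at least 1 probe set that fell. The largest fall was that of KIF23 (2.04-fold) and the smallest that of KIF18B (1.18-fold). KIF11, KIF15 and KIF20B had no probe set that passed. The median difference, ZNF750 minus GFP, was -0.31 log2 units over the 15 probe sets and 0.026 over all probe sets. Of the 15, 5 fell by at least 0.5 log2 units, against 2.67% of all probe sets. The calls were lost without either GFP array, and nearly all calls of the whole table were lost with them. The median difference of the 15 was -0.33 without GFP replicate 1 and -0.40 without GFP replicate 2. Without ZNF750 replicate 1, 6 of the 15 fell, and without ZNF750 replicate 2, 3 fell.

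The promoters of all 10 genes, called or not, were read to see what they share in sequence. All 10 matched a RefSeq promoter by symbol (build GRCh38.p14), a window of 300 bases that runs from 250 before to 50 after the annotated gene start. The CHR letters TTTGAA, searched on both strands, occurred in 8 of the 10 windows (80%), against 15.6% of the 27305 promoters in the table. The CCAAT letters, also searched on both strands, occurred in 8 of 10 (80%), against 35.6% of all promoters. In the 10 windows no match of one word overlapped a match of the other. Both occurred in 7 of 10 windows, against 6.15% of all promoters. The 100 bases before the start are shown for 6 genes, 5' to 3' on the gene's strand, with matches to either word in capitals; they were chosen as 3 genes that fell and hold both words, 1 that did not pass and holds both, and the 2 that lack the CHR letters.
KIF23 (chr15:69414249-69414348, + strand): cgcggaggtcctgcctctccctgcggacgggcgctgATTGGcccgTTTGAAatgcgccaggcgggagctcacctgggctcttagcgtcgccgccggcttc
KIF18A (chr11:28108157-28108256, - strand): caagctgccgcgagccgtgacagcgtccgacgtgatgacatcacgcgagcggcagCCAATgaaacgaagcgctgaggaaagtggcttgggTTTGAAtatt
KIF4A (chrX:70290004-70290103, + strand): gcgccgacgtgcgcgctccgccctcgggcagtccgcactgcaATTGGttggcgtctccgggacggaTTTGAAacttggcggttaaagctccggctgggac
KIF11 (chr10:92593030-92593129, + strand): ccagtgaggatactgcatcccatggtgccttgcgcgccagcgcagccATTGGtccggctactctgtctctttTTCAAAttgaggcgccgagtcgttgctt
KIF20A (chr5:138179012-138179111, + strand): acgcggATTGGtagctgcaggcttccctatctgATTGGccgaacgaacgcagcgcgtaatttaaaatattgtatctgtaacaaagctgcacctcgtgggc
KIF2C (chr1:44739737-44739836, + strand): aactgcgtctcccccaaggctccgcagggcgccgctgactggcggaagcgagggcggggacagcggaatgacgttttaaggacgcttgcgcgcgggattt

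In KIF23 the first base of the CHR letters lay 9 bases from that of the nearest CCAAT letters, in KIF14 23, in KIF4A 24, in KIF11 25, in KIF18B 34, in KIF18A 35 and in KIF20B 122. The presence of the CHR letters did not follow the calls. They were found in 5 of the 7 genes that fell and in all 3 that did not pass, KIF11, KIF15 and KIF20B. KIF20A, which fell, held the CCAAT letters at 2 places and no CHR letters, and KIF2C, which also fell, held neither. Only the spelling TTTGAA was searched. A gene without these letters, such as KIF20A or KIF2C, is therefore not shown to lack a CHR of another spelling. A match is a stretch of letters, and binding was not measured.

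**Figure D1:**
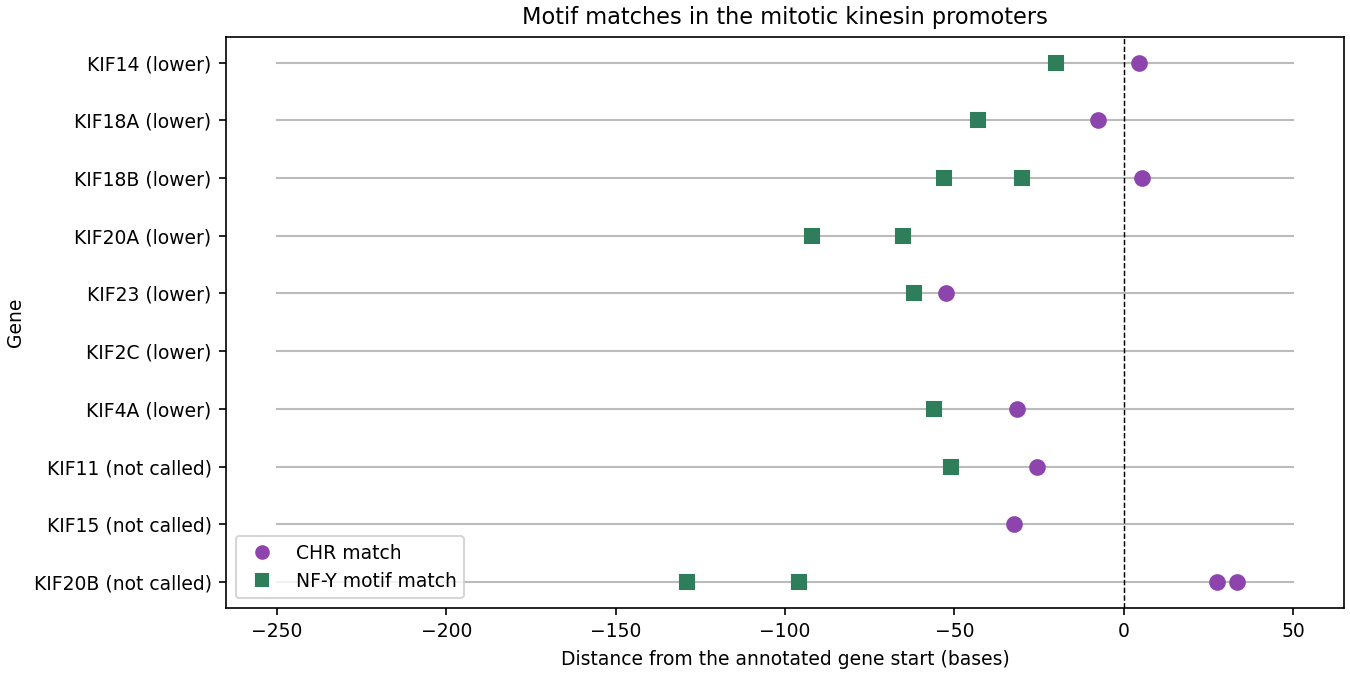
Positions of CHR and NF-Y motif matches in the promoter window of each mitotic kinesin, as distance in bases from the annotated gene start, with whether the gene had a probe set that fell. Matches lie between -131 and 36 bases from the start in 9 genes, and the KIF2C window has none.

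Motors that separate the poles did not pass. KIF11, known as Eg5, slides antiparallel microtubules apart and is needed for a bipolar spindle. Its probe set 204444_at had log2 values of 9.91 and 9.68 in the ZNF750-labelled arrays, against 10.02 and 9.86 in the GFP arrays. The groups overlapped, and the difference was -0.14 ± 0.088 (SE; limma adjusted p = 0.363). KIF15, which helps to hold poles apart beside KIF11, had 6.85 and 6.47 in the ZNF750-labelled arrays, against 7.06 and 6.81 in the GFP arrays. Those groups overlapped too, with a difference of -0.27 ± 0.14 (adjusted p = 0.283). The 95% interval ran from -0.61 to 0.064 for KIF15 and from -0.35 to 0.064 for KIF11, so a fall as large as that of KIF20A was inside the interval for KIF15 and outside it for KIF11.

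Of the listed motors, those that act on chromosomes and microtubule ends fell on all 5 of their probe sets. Outside the list, CENPE also fell, and KIF22 and KIF2A did not pass. The grouping by function was made here and was not tested. KIF2C, known as MCAK, strips tubulin from microtubule ends and corrects faulty kinetochore attachments. On probe set 209408_at it had 9.53 and 9.57 in the ZNF750-labelled arrays, against 10.09 and 10.15 in the GFP arrays. On 211519_s_at it had 7.61 and 7.50 in the ZNF750-labelled arrays, against 8.37 and 8.25 in the GFP arrays. Every ZNF750-labelled value lay below both GFP values, by at least 0.52 and 0.64 log2 units on the 2 probe sets. The falls were -0.57 ± 0.054 (adjusted p = 0.00147) and -0.76 ± 0.081 (adjusted p = 0.0023), with overlapping 95% intervals.

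KIF18A, which damps the oscillation of chromosomes at the metaphase plate, had 7.73 and 7.38 in the ZNF750-labelled arrays, against 8.35 and 8.14 in the GFP arrays. The arrays separated, although the ZNF750-labelled pair differed by 0.35 between themselves, and the fall was -0.69 ± 0.12 (1.62-fold, adjusted p = 0.0141). KIF18B, its relative that limits the length of astral microtubules, had 9.96 and 9.87 in the ZNF750-labelled arrays, against 10.18 and 10.12 in the GFP arrays. This was the smallest fall called among the motors, -0.24 ± 0.056 (adjusted p = 0.0351), and it did not pass under cyclic loess, renewed quantile normalization or centring. KIF4A, a motor on chromosome arms that also sets the length of the midzone overlap with PRC1, had 9.46 and 9.43 in the ZNF750-labelled arrays, against 9.89 and 9.85 in the GFP arrays. Replicates differed by at most 0.043, and the fall was -0.43 ± 0.053 (1.34-fold, adjusted p = 0.00384).

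**Figure D2:**
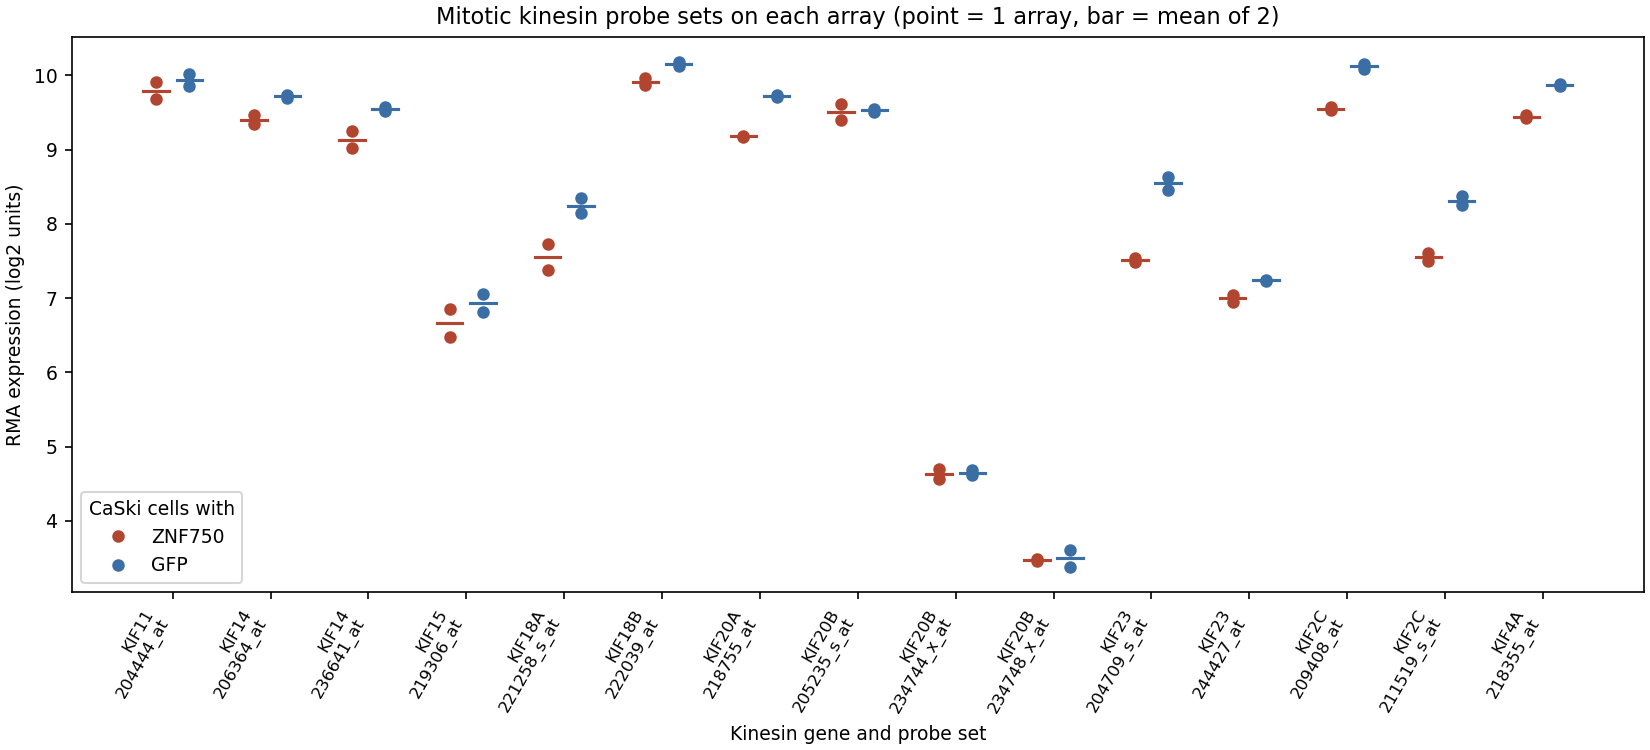
RMA expression in log2 units of each of the 15 probe sets on each array, with ZNF750-labelled arrays left of GFP arrays, 1 point per array and a bar at the mean of 2. All ZNF750 points lie below both GFP points for 10 probe sets, and the groups overlap for KIF11, KIF15 and the 3 KIF20B probe sets.

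Motors of the midzone and of cytokinesis were mixed. KIF23, known as MKLP1, forms centralspindlin with RACGAP1 and bundles the midzone. On 204709_s_at it had 7.54 and 7.48 in the ZNF750-labelled arrays, against 8.63 and 8.46 in the GFP arrays. The gap between the groups was 0.91 log2 units, the widest among the 15 probe sets, and the fall was -1.03 ± 0.082 (adjusted p = 0.000829). Its other probe set, 244427_at, had 7.04 and 6.95 in the ZNF750-labelled arrays, against 7.25 and 7.23 in the GFP arrays, a difference of -0.24 ± 0.082 (adjusted p = 0.108) without overlap of the groups. Within each array the first probe set exceeded the second by 0.50 and 0.53 in the ZNF750-labelled arrays and by 1.38 and 1.23 in the GFP arrays, so the 2 probe sets of KIF23 moved unequally. The mean of both gave -0.64 (adjusted p = 0.00178). The annotation gives no accession for 244427_at, and which transcript it reads is not known here. The antisense gene KIF23-AS1, looked at after the KIF23 values had been seen, differed by -0.06 ± 0.12 (adjusted p = 0.810).

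KIF20A, known as MKLP2, carries the chromosomal passenger complex to the midzone. Its values were 9.19 and 9.17 in the ZNF750-labelled arrays, against 9.74 and 9.71 in the GFP arrays, and it fell by 0.54 on the log2 scale (SE 0.054, 1.45-fold, adjusted p = 0.00188). KIF14, which brings citron kinase to the midzone, fell on both probe sets. On 206364_at it had 9.47 and 9.34 in the ZNF750-labelled arrays, against 9.70 and 9.74 in the GFP arrays (-0.31 ± 0.063, adjusted p = 0.0207). On 236641_at it had 9.25 and 9.02 in the ZNF750-labelled arrays, against 9.57 and 9.52 in the GFP arrays (-0.41 ± 0.081, adjusted p = 0.0202). The KIF14 probe sets thus separated the groups alike, with overlapping 95% intervals.

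KIF20B, a relative of KIF20A and KIF23 that acts late in cytokinesis, stood at 9.61 and 9.40 in the ZNF750-labelled arrays on 205235_s_at, against 9.55 and 9.51 in the GFP arrays. The difference was -0.03 ± 0.076 (adjusted p = 0.877), and its 95% interval, from -0.20 to 0.15, did not reach the estimated falls of KIF14, KIF20A or KIF23 on their called probe sets. The other KIF20B probe sets, 234744_x_at and 234748_x_at, were dim, at percentiles 35.1 and 16.8 of the mean values of all probe sets. RMA pulls dim signals toward a common background and understates their differences, which were -0.02 for each. The sign of the KIF20B difference changed with the scaling, to 0.038 after cyclic loess on 205235_s_at.

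**Figure D3:**
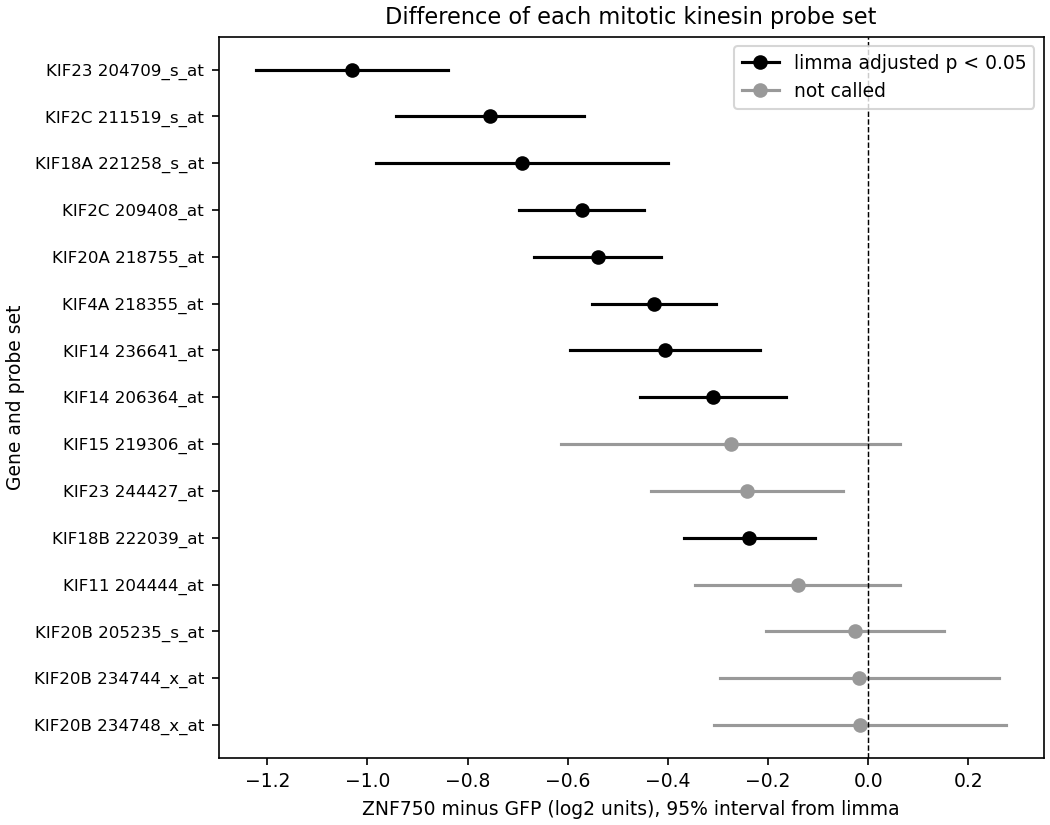
ZNF750 minus GFP in log2 units for each probe set, with the 95% interval from limma (2 arrays per group); black points have an adjusted p below 0.05. KIF23 on 204709_s_at lies farthest from 0, at -1.03, and the 3 KIF20B probe sets lie at or near 0.

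The order of the falls was only partly resolved. The 95% interval of KIF23 on 204709_s_at, from -1.22 to -0.84, overlapped those of KIF2C on 211519_s_at and of KIF18A, and lay wholly below those of the other probe sets. The intervals of KIF2C on 209408_at, KIF18A and KIF20A overlapped one another. In 10 of 15 probe sets both ZNF750-labelled arrays lay below both GFP arrays, against 24.3% of all probe sets, and in 0 of 15 both lay above, against 29.9%. Among the 42286 probe sets within the motors' range of mean values, 7.2% fell and 4.39% rose. The mean over the 15 probe sets was 8.08 and 7.96 in the ZNF750-labelled arrays, against 8.43 and 8.37 in the GFP arrays.

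The falls of KIF20A, KIF23 on 204709_s_at and KIF2C on 209408_at held up best under other processing. Each passed in all but 2 of the alternatives that test it as a single probe set, those without a GFP replicate. Over these the difference ranged from -0.56 to -0.48 for KIF20A, from -1.12 to -0.95 for KIF23 and from -0.60 to -0.51 for KIF2C, and the largest adjusted p was 0.118, 0.0987 and 0.110. Without an intensity trend in the variance prior, 4 of the 15 probe sets fell, those 3 and KIF2C on 211519_s_at, and KIF14, KIF18A, KIF18B and KIF4A did not pass.

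**Figure D4:**
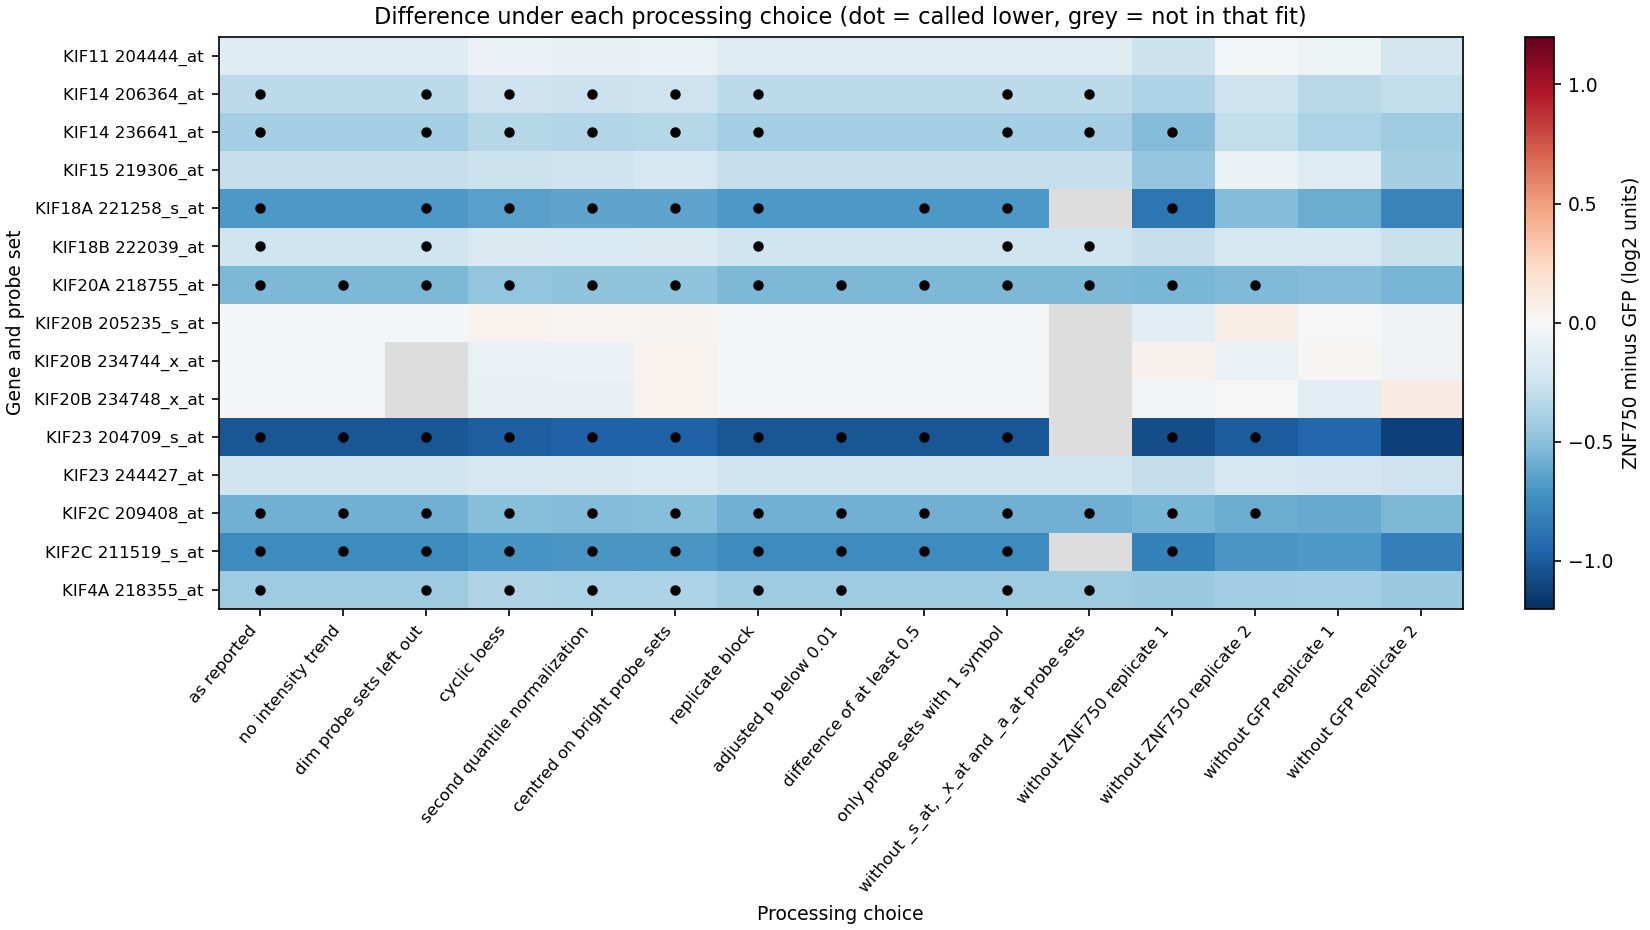
ZNF750 minus GFP in log2 units (colour) for each of the 15 probe sets under each processing choice, with a dot where the probe set was called lower and grey where it was not in that fit. Colours stay blue for the called motors throughout, while the dots vanish in the columns without a GFP replicate.

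Other kinesins gave a scale for these values. Of 7 probe sets for 5 further motors with roles in mitosis, 2 fell (28.6%, against 7.19% of all). Of these 7, 0 rose (4.3% of all did), and the median was -0.19. CENPE, which carries chromosomes toward the metaphase plate, fell by 0.59 on the log2 scale (SE 0.088, adjusted p = 0.00699). KIFC1, a minus-end motor that focuses poles, fell by 0.26 (SE 0.062, adjusted p = 0.0382), and not under cyclic loess, renewed quantile normalization, centring or the replicate number as a block, each of which left 1 of the 7. KIF22, a chromosome arm motor, differed by -0.19 ± 0.062 (adjusted p = 0.106) and KIF2A, a depolymerase at poles, by -0.12 ± 0.085 (adjusted p = 0.416). Of 65 probe sets for 28 transport and ciliary kinesins, 4 fell and 1 rose, with a median of 0.031. The 4 were 3 probe sets of KIF13A and 1 of KIFC3 (-0.34 ± 0.081), and KIF13A, a carrier of endosomes, differed by -0.42 ± 0.056 (adjusted p = 0.00472) on its brightest. The 1 that rose was KIFC2 226792_s_at (0.29, adjusted p = 0.0389), named after its value had been seen, and KIF21B (0.32 ± 0.11) and KIF24 (0.30 ± 0.12) did not pass. The share that fell was thus 60% among the mitotic kinesins and 6.15% among the transport and ciliary kinesins, which is near the 7.19% of all probe sets. The difference between these shares was not tested, and the lists were chosen with earlier results of these data known.

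Genes whose products work with the motors fell as well. Of 44 probe sets for 20 such genes, 25 fell (56.8%, against 7.19% of all) and 0 rose, with a median of -0.36. At least 1 probe set fell in 17 genes, against 12.8% of all genes, and the brightest one fell in 12. In ANLN, CDK1, MAPRE1, MKI67 and NUSAP1 another probe set fell and the brightest did not pass. Of these brightest ones, CDK1 (0.092) and MAPRE1 (0.066) lay above 0 and the rest below. CCNB1, the mitotic cyclin, differed by -1.21 ± 0.072, CDCA8, a subunit of the passenger complex that KIF20A carries, by -0.88 ± 0.068, and CCNB2 by -0.85 ± 0.063. TPX2, which recruits KIF15 and KIF11 to spindle microtubules, differed by -0.84 ± 0.052 (adjusted p = 0.000363). PRC1, the partner of KIF4A and KIF14, and RACGAP1, the partner of KIF23, were named for that pairing, after their values had been seen. They differed by -0.53 ± 0.052 and -0.40 ± 0.059, and both passed. The 3 genes with no probe set that passed were ECT2, INCENP and MAPRE3, also named after their values had been seen. On their brightest probe sets ECT2 differed by -0.19 ± 0.051, INCENP by -0.11 ± 0.12 and MAPRE3 by 0.13 ± 0.11. Of 17 partner promoters in the table, 12 held both the CHR and the CCAAT letters (70.6%, against 6.15% of all promoters).

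Tubulin, the track of these motors, was lower on most probe sets. Of 21, 14 fell (66.7%, against 7.19% of all) and 1 rose (4.76%, near the 4.3% of all), with a median of -0.19. At least 1 probe set fell in 6 of 11 genes, against 12.8% of all genes, and 4 genes had none that passed. TUBA1B (-0.37 ± 0.034), TUBB3 (-0.33 ± 0.038) and TUBA1C (-0.32 ± 0.044) fell and TUBA1A rose (0.38 ± 0.071). Most of these were read by _x_at probe sets, which near-identical tubulin genes can share, and without _s_at, _x_at and _a_at probe sets 1 fell.

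Genes listed as G2/M transcription regulators were mixed, with a median of -0.044. Of their 54 probe sets, 9 were lower (16.7%, against 7.19% of all) and 5 higher (9.26%, against 4.3% of all). FOXM1, an activator of mitotic genes, fell by 0.22 on the log2 scale (SE 0.047, adjusted p = 0.0248), and MYBL2 differed by 0.047 ± 0.050 (adjusted p = 0.611). CDKN1A, the p21 inhibitor of cyclin-dependent kinases, rose by 0.80 ± 0.050 (1.75-fold, adjusted p = 0.000368). LIN37 (0.49 ± 0.065), TFDP2 (0.49 ± 0.12) and RB1 (0.38 ± 0.049) rose on their brightest probe sets, and other probe sets of each did not pass. E2F1, named after its values had been seen, rose on 204947_at (0.32 ± 0.068, limma adjusted p = 0.0249). Its other probe set, 2028_s_at, gave 0.27 ± 0.083 and did not pass (limma adjusted p = 0.082). The remaining 8 lower probe sets, named after their values had been seen, belonged to TFDP1, RBBP4, NFYA and NFYC. TFDP1, the dimerization partner of E2F factors, fell on all 3 of its probe sets, with differences of -0.23 to -0.70. RBBP4, a MuvB subunit, fell on 2 of 6 (-0.41 and -0.44). The NF-Y subunits, which read CCAAT boxes, fell on 1 of 6 probe sets for NFYA (-0.58) and 2 of 6 for NFYC (-0.27 and -0.49), and on 0 of 4 for NFYB, where 1 was lower at an unadjusted limma p below 0.05.

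DNA replication genes had 4 of 30 probe sets higher (13.3%, against 4.3% of all), 3 lower (10%, near the 7.19% of all) and a median of 0.063. CDT1, a licensing factor, rose (0.54 ± 0.050), as did ORC6 (0.25 ± 0.046) and MCM7 (0.22 ± 0.050), whereas ORC1 gave -0.26 ± 0.092 (adjusted p = 0.126). The lower ones, named after their values had been seen, were MCM4 212142_at (-0.53), RRM2 209773_s_at (-0.42) and TYMS 1554696_s_at (-0.26), and the other probe sets of these genes did not pass. The number higher was 8 under cyclic loess, under renewed quantile normalization and under centring. Of the 14 replication promoters that matched, 0 held the CHR letters, against 15.6% of all promoters. The CCAAT letters were in 9 of the 14 (64.3%, against 35.6% of all). Among 20 transport and ciliary kinesin promoters 1 held the CHR letters (5%, against 15.6% of all). Tubulins, with 14 of 21 probe sets lower, held them in 2 of 11 promoters (18.2%, against 15.6% of all). Further mitotic kinesins held them in 2 of 6 promoters (33.3%), counting KIF4B, which had no probe set with only its symbol. The regulators held them in 4 of 16 (25%), and 0 of those 16 held both words, against 6.15% of all promoters. Whether the CHR letters go with the falls across lists was not tested.

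**Figure D5:**
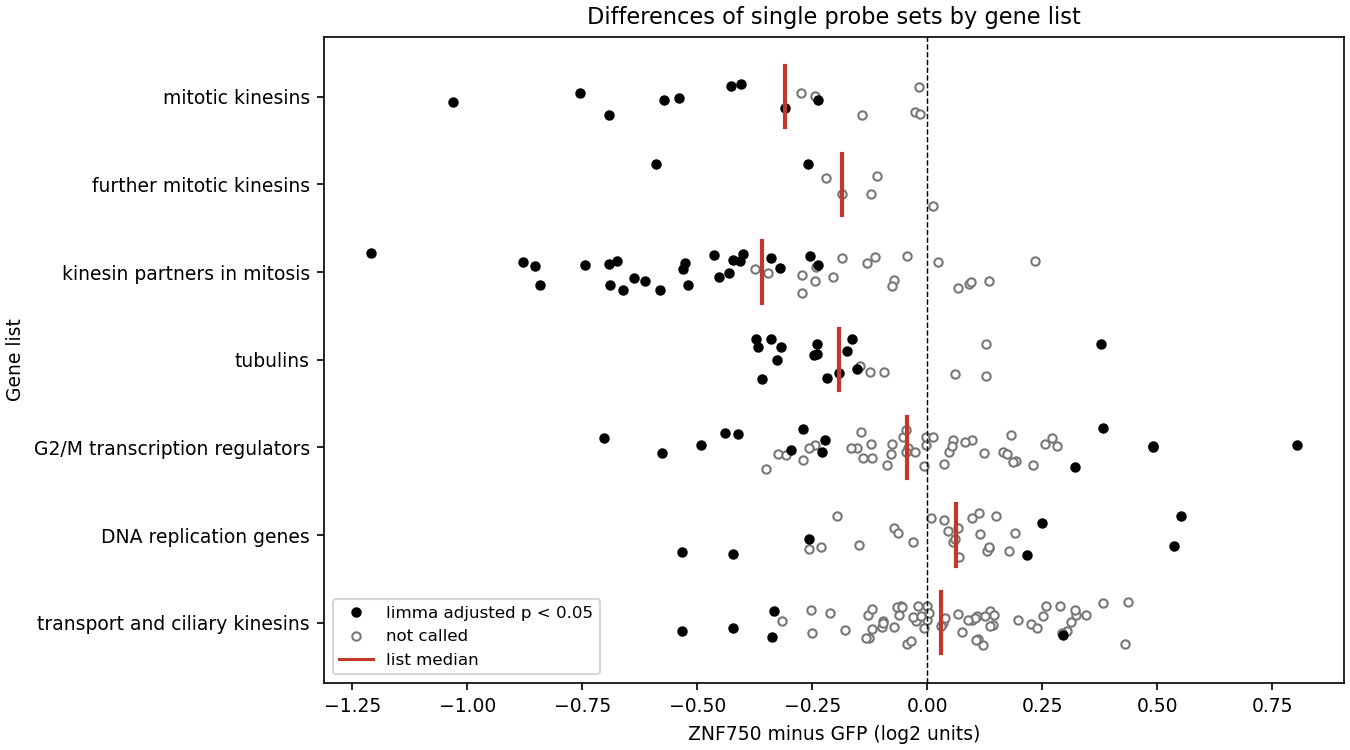
ZNF750 minus GFP in log2 units for every probe set of each gene list, with filled points for adjusted p below 0.05 and a red bar at the list median. The mitotic kinesins and their partners extend furthest to the left, with medians of -0.31 and -0.36, and the transport and ciliary kinesins centre near 0.

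The profiles nearest to the mean of the motors' brightest probe sets, by root mean square deviation over the 4 centred arrays among 19765 genes, were those of TMEM133 (0.0066), HSPD1 (0.011) and MAN2B2 (0.012). Among the motors KIF4A deviated least (0.044) and KIF23 most (0.31).

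Array-wide measures bear on all these values. The ACTB control probe sets gave a 3' minus 5' difference, a sign of RNA integrity and labelling, of 3.76 and 3.35 in the ZNF750-labelled arrays, against 3.03 and 2.81 in the GFP arrays. For GAPDH it was 0.85 and 0.80 in the ZNF750-labelled arrays, against 0.63 and 0.61 in the GFP arrays. The part of this shift in the kinesin falls was not tested. All 6 measured epithelial markers (KRT5, KRT14, KRT19, CDH1, EPCAM and CDKN2A) ranked above percentile 97.2, and the mean of their brightest probe sets was 12.10 to 12.13 in the ZNF750-labelled arrays, against 11.84 to 11.86 in the GFP arrays. Of the 10 probe sets of these 6 genes 3 rose and 2 fell. KRT14 rose by 1.10, KRT5 by 0.24 and KRT19 by 0.16, and CDKN2A differed by -0.38 and -0.29 on the log2 scale. For 6 fibroblast markers the mean of the brightest probe sets was 5.13 to 5.18 in the ZNF750-labelled arrays and 4.95 to 5.01 in the GFP arrays. For 3 leukocyte markers it was 4.66 to 4.79 in the ZNF750-labelled arrays and 4.58 to 4.77 in the GFP arrays, and for 3 endothelial markers 5.03 to 5.11 in the ZNF750-labelled arrays and 4.94 to 5.14 in the GFP arrays. In limma 0 probe sets of these last lists passed, with 3 fibroblast probe sets higher at an unadjusted p below 0.05 and 0 leukocyte or endothelial ones. In total RNA of a culture, fewer cells in mitosis and less kinesin RNA per cell cannot be told apart.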

How the data were processed

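Total RNA was measured on 4 Affymetrix HG-U133 Plus 2.0 arrays. The authors deposited log2 values for 54675 probe sets, made with RMA, per the submitters' processing notes, whose version is not stated there. This method subtracts background, equalises the distributions of the arrays by quantiles and combines the probes of a set. Array medians of the deposited log2 values lay between 5.45 and 5.51, so probe sets were not centred. The standard deviation was 2.34 and 2.32 in the ZNF750-labelled arrays, against 2.39 and 2.37 in the GFP arrays. Centring on bright probe sets gave a median of -0.25 for the motors, against -0.31 without it. No detection calls were used here, and the number of arrays limits precision.

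Symbols came from the platform annotation: 41091 probe sets had 1, 1801 several and 11721 none. The 62 controls were left out. Under R 4.3.3, limma 3.58.1 fitted ZNF750 minus GFP with lmFit and eBayes (an intensity trend, 2 residual degrees of freedom), adjusted by Benjamini-Hochberg over 54613 probe sets and called below 0.05. Errors after ± are limma's SE (n = 2 per group). Members and gene lists were chosen with earlier results of these data known. Named genes were every member probe set, 5 genes fixed by name, up to 4 genes per list with the largest difference of the brightest probe set, the 3 nearest profiles, and those said to be chosen after their values were seen. Alternatives covered the variance prior, dim probe sets, normalization, centring, the replicate block, thresholds, probe set choice and leaving out each array. Promoters are RefSeq windows, 1 per gene.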

Additional observations from a re-analysis of the deposited data

How the results depend on the processing

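Across 16 alternatives the called motors kept their direction, and the calls themselves depended on the arrays. With 1 array left out, the lone array is assumed to vary like the other group; mitotic kinesin probe sets lower ranged from 0 to 6, genes with a lower probe set from 0 to 5, and the median from -0.44 to -0.25. In the same fits all probe sets gave 8 to 267 higher and 1 to 661 lower, and lower probe sets ranged from 0 to 1 for further mitotic kinesins, from 0 to 0 for transport kinesins, from 0 to 13 for partners, from 0 to 1 for regulators and for replication genes, and from 0 to 6 for tubulins. Without the intensity trend 520 probe sets were higher and 754 lower, with 4 lower for mitotic kinesins (3 genes), 12 for partners, 1 for transport kinesins, 1 for regulators and 0 for further mitotic kinesins, replication genes and tubulins. At adjusted p below 0.01 the counts were 704 higher and 1474 lower, with 5 for mitotic kinesins (4 genes), 1 for further mitotic kinesins, 2 for transport kinesins, 2 for regulators, 1 for replication genes and 9 for tubulins. With a difference of at least 0.5 they were 961 and 1457, with 5 (4 genes), 1, 1, 2, 1 and 0 in the same order and 15 for partners. Without _s_at, _x_at and _a_at probe sets they were 1234 and 1790, with 9 for partners, 4 for regulators and 1 each for further mitotic kinesins, replication genes and tubulins. Centring on bright probe sets gave 4467 higher and 3493 lower (43.9% lower, against 62.6%), with 8 for mitotic kinesins, 1 for further mitotic kinesins, 5 for regulators and 9 for tubulins. The median of the motors was -0.41 with dim probe sets left out and -0.39 with the mean of probe sets per gene. Cyclic loess, renewed quantile normalization and the replicate block each gave 1 for further mitotic kinesins. With the replicate block the same 9 motor probe sets fell; replicate differences correlated at 0.13 over probe sets, and the labels share only a number. Among motors only KIF20B changed sign in these alternatives, and it never passed. KIF20B 205235_s_at gave 0.038 after cyclic loess, 0.027 after renewed quantile normalization, 0.034 after centring and -0.13 to 0.079 with 1 array left out. KIF20B 234744_x_at gave 0.042 after centring and -0.082 to 0.047 with 1 array left out, and KIF20B 234748_x_at gave 0.044 and -0.13 to 0.095. ZNF750 219995_s_at gave -0.064 after cyclic loess, -0.037 after renewed quantile normalization and -0.12 to 0.12 with 1 array left out. The cause of these changes was not tested. Low signal limits the dim KIF20B probe sets.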
